A study of Homo sapiens with 9 samples.

Results

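RD is an established human cell line of embryonal rhabdomyosarcoma, a childhood tumour whose cells carry a skeletal muscle program that does not run to completion. The data described here are the transcriptome of RD cells that carried an inducible non-targeting hairpin (shNT) and had been kept in differentiation medium. They comprise 3 libraries, replicates 1, 2 and 3, of the 9 in the series, chosen by their labels, and the 6 libraries with hairpins against TRPS1 were not used. The labels describe doxycycline at 1 µM as the inducer, a first phase of 2 days under growth conditions (10% fetal bovine serum) and a second phase of 10 days under differentiation conditions (2% horse serum). RNA that carries a poly(A) tail was sequenced. The control cells therefore also carried a hairpin construct and the inducer, and they represent 1 tumour line. RD cells in growth medium and normal muscle were not analysed here, so the values are levels, and whether a gene changed with the medium was not tested. No label states if the 3 libraries were grown separately. The SDs therefore measure the spread between libraries, which may be technical.

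In skeletal muscle formation, the transcription factors MYF5 and MYOD1 commit cells to the lineage and MYOG drives their exit into differentiation, after which the cells fuse and build sarcomeres, the contractile units. Many sarcomere and synapse proteins exist as embryonic, fetal and adult versions from separate genes, and developing muscle replaces the early versions with the adult ones. Rhabdomyosarcoma cells are known for expressing MYOD1 and MYOG while they go on dividing.

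Levels are given in RPKM, reads per kilobase of gene scaled to the total counts of the library, which allows genes of different length to be set side by side. The libraries held 22820706, 22480288 and 22945103 counts. Of 60676 genes in the table, 31092 had a read in at least 1 library, and 12782 reached a mean of 1 RPKM, of which 11105 were protein-coding. This is 21.1% of all genes and 55.8% of the 19915 protein-coding ones. The median protein-coding gene stood at 2.05 RPKM. The mitochondrial genome took 2.69% to 2.74% of the counts in each library.

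The 3 libraries gave nearly the same ranking. Over the 12782 genes, which are not independent replicates, the Spearman correlation of RPKM between libraries was 0.994 to 0.995. The coefficient of variation over the libraries had a median of 4.04%, beside 3.55% for the part that counting alone gives. A chi-square test of whether a gene's 3 counts followed the library totals found 1097 of 16522 genes that differed beyond counting noise (6.64%, Benjamini-Hochberg adjusted p under 0.05). Without replicate 1 this number was 182 and without replicate 2 it was 622. Replicate 1 stood apart by gene length. Its RPKM lay below the mean of the other libraries for short genes, with a median log2 ratio of -0.11 over 52 genes under 1 kb, and above it for long ones, at 0.04 over 2359 genes longer than 8 kb. With library sizes adjusted for a trend on gene length, an alternative chosen after seeing the data, 622 genes differed.

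**Figure D1:**
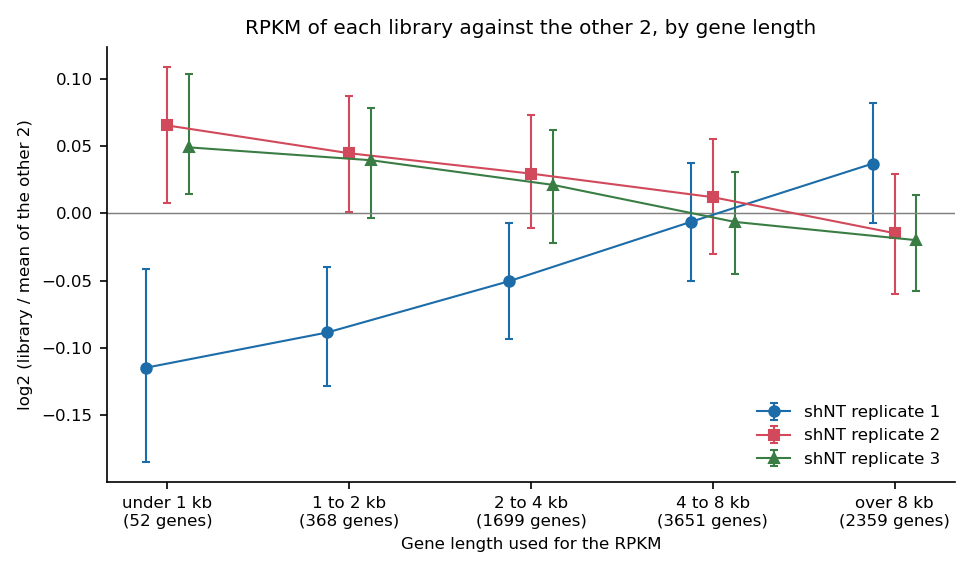
Median log2 ratio of the RPKM in each library over the mean of the other 2 (y axis) for genes with a mean of 500 or more counts, in 5 classes of gene length (x axis). Bars span the 25th to the 75th percentile of the genes. Replicate 1 runs upward with length, from -0.11 to 0.04, and replicates 2 and 3 run downward.

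Transcript output was led by the mitochondrial genome and by 1 collagen. MT-CO3, a cytochrome c oxidase subunit encoded in mitochondria, was first, with 3536, 3536 and 3545 RPKM in replicates 1, 2 and 3. COL3A1, the chain of type III collagen, was second among all genes and first among nuclear ones. It stood at 2952, 2940.5 and 2972 RPKM (mean 2955 ± 16.0, SD, n = 3), which was 2.00% of all counts. The 3 values of COL3A1 nearly coincided. Of the 15 genes at 1000 RPKM or more, 13 came from the mitochondrial genome, and the other two were COL3A1 and TMSB10, an actin-binding thymosin. The 10 highest genes held 11.2% ± 0.114 of the summed RPKM and the 100 highest held 25.5% ± 0.163 (SD, n = 3).

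The next nuclear protein-coding genes mixed muscle, matrix and housekeeping functions. TMSB10, a transcript of under 1 kb, had 1616, 1772 and 1808 RPKM, lowest in replicate 1. IGFBP5, a binding protein of insulin-like growth factors that differentiating myoblasts secrete, had 958, 879 and 878 RPKM, highest in replicate 1. Muscle genes among the 20 highest were ACTC1 (624 ± 15.5 RPKM), DES (574 ± 17.0), MYL11 (489 ± 37.4) and MYL1 (455 ± 16.8), which encode cardiac alpha-actin, the muscle intermediate filament desmin and the light chains of fast myosin. NES, which encodes nestin, an intermediate filament of progenitor cells, stood beside DES at 565 ± 1.64 RPKM. Matrix genes among the 20 were SPARC, a collagen-binding glycoprotein (623 ± 7.34 RPKM), COL5A2 of type V collagen (411 ± 5.14) and FN1, fibronectin (394 ± 27.3). Others were the translation factor EEF2 (633 ± 9.31), the ribosomal protein RPS12 (387 ± 25.6), the cytoskeletal ACTB (610.3 ± 13.7), ACTG1 (471 ± 10.3) and TUBB (387 ± 11.4), the glycolytic enzyme GAPDH (578 ± 25.6) and the chaperones CALR (466 ± 12.2) and HSP90AB1 (459.9 ± 10.1), all in RPKM. Neighbours in this order often overlapped over the libraries: EEF2 had 626 to 644 RPKM, ACTC1 607 to 637 and SPARC 614 to 628.

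**Figure D2:**
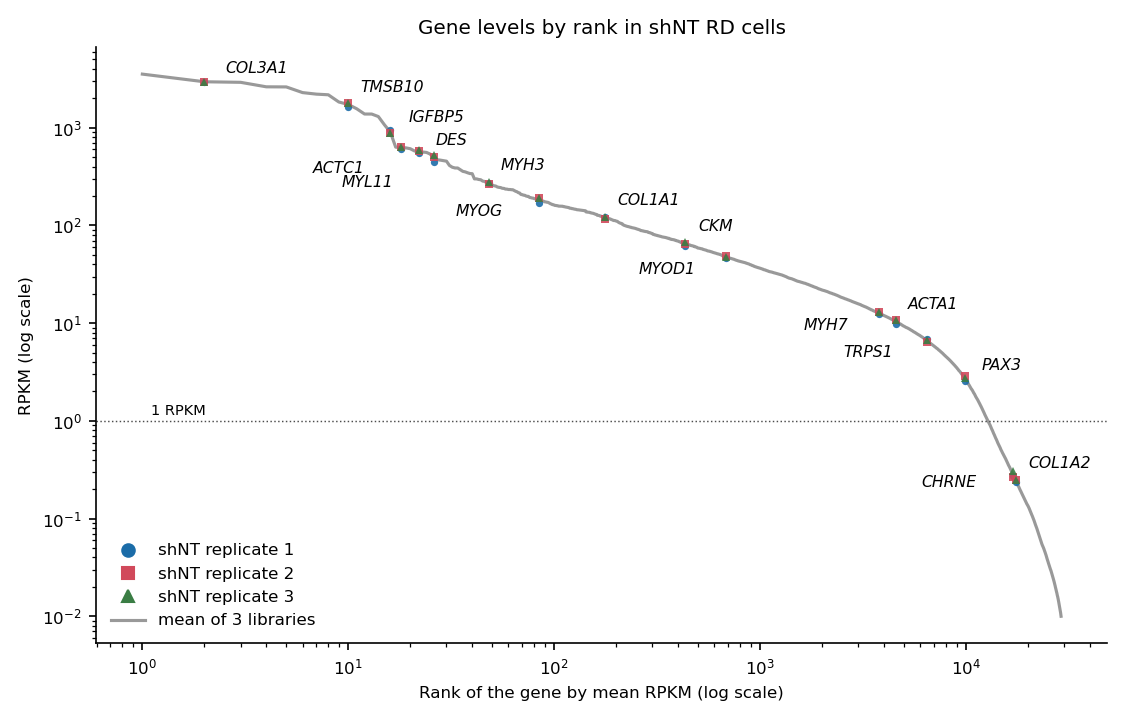
RPKM (y axis, log scale) against the rank of each gene by mean RPKM (x axis, log scale) in shNT RD cells, as the mean of 3 libraries (line), with the 3 libraries shown for 17 named genes (points). COL3A1 stands at rank 2, MYH3 at 48, MYOG at 84 and MYOD1 at 681, and the points of a gene nearly coincide.

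The labelled identity was checked on MYOD1, MYOG and MYH3, which mark skeletal muscle cells, and all 3 were present in each library. MYOG (chr1:203083132-203086036, minus strand, GRCh38 in GENCODE 29) had 170.0, 190.4 and 191 RPKM, so that replicate 1 was the lowest and the other two were nearly equal. It ranked 84th, between PPIB, a chaperone of collagen folding (186 ± 10.3 RPKM), and OST4, a subunit of the oligosaccharyltransferase (182 ± 8.79). FSCN1, GNAS and YWHAE, at 187, 182 and 179 RPKM, were the other genes nearest to it. MYOD1 (chr11:17719568-17722131, plus strand) had 46.2, 48.9 and 47.8 RPKM and ranked 681st. Its neighbours NOTCH3, ANGPTL1, PRPF31, RFLNB and ITGA6 all had means of 47.6 to 47.7 RPKM, and their libraries overlapped those of MYOD1. MYH3 (chr17:10628526-10657309, minus strand), the embryonic myosin heavy chain, had 273, 267 and 276 RPKM and ranked 48th, next to MEST (273 ± 2.71) and the laminin chain LAMB1 (266 ± 5.82). PRDX1, MAGED2 and LAPTM4A, at 282, 258 and 255 RPKM, followed in nearness. COL3A1 (chr2:188974320-189012746, plus strand) is a gene of connective tissue rather than of muscle fibres, and it exceeded MYH3 by a factor of 10.8 to 11.0 in the 3 libraries.

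Of 20 myogenic regulators, 17 reached 1 RPKM, beside 55.8% of all protein-coding genes. Of the 20, 11 reached 10 RPKM, beside 4714 of all 60676 genes, and MYOG alone passed 100 RPKM. Within the family of muscle bHLH factors, MYOG made up 79.3% ± 0.694 of the summed RPKM and MYOD1 20.6% ± 0.676 (SD, n = 3), and MYOG stood above MYOD1 by a factor of 3.68 to 3.99. The other two members were at the floor of the data. MYF6, a factor of late differentiation, had 8, 8 and 6 reads (0.243 ± 0.0399 RPKM). MYF5, which acts early in commitment, had no read in any library, which allows at most 0.0285 RPKM at 3 counts over the 3 libraries. That limit, like each floor given here, covers counting error only.

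Factors that restrain or assist the muscle bHLH proteins were present at unequal levels. MSC, a bHLH repressor of the lineage, was second in the list at 88.0, 86.0 and 88.2 RPKM, above MYOD1 in each library. The inhibitors of DNA binding differed widely: ID3 had 22.4 ± 1.23 RPKM, whereas ID1 had 1.13 ± 0.0944 and ID2 had 1.03 ± 0.141. TCF12, an E protein that pairs with MYOD1 and MYOG, had 24.0 ± 0.612 RPKM. The MEF2 partners MEF2D, MEF2C and MEF2A stood at 26.6 ± 1.1, 24.5 ± 0.220 and 12.1 ± 0.347 RPKM, and MEF2B, with 73.9% of its exonic bases shared with another gene in GENCODE 29, had 0.196 ± 0.0470. Upstream, the homeobox factor SIX4 had 15.01 ± 0.448 RPKM, with the EYA cofactors EYA4, EYA1 and EYA2 at 7.71, 5.03 and 1.30. PAX7, the factor of muscle stem cells, had 13.5, 12.8 and 13.7 RPKM and PAX3, its relative of the embryonic limb, had 2.56, 2.86 and 2.77, so PAX7 made up 83.0% ± 1.23 of the pair. Neighbours in this list overlapped over the libraries in 6 of 19 pairs.

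**Figure D3:**
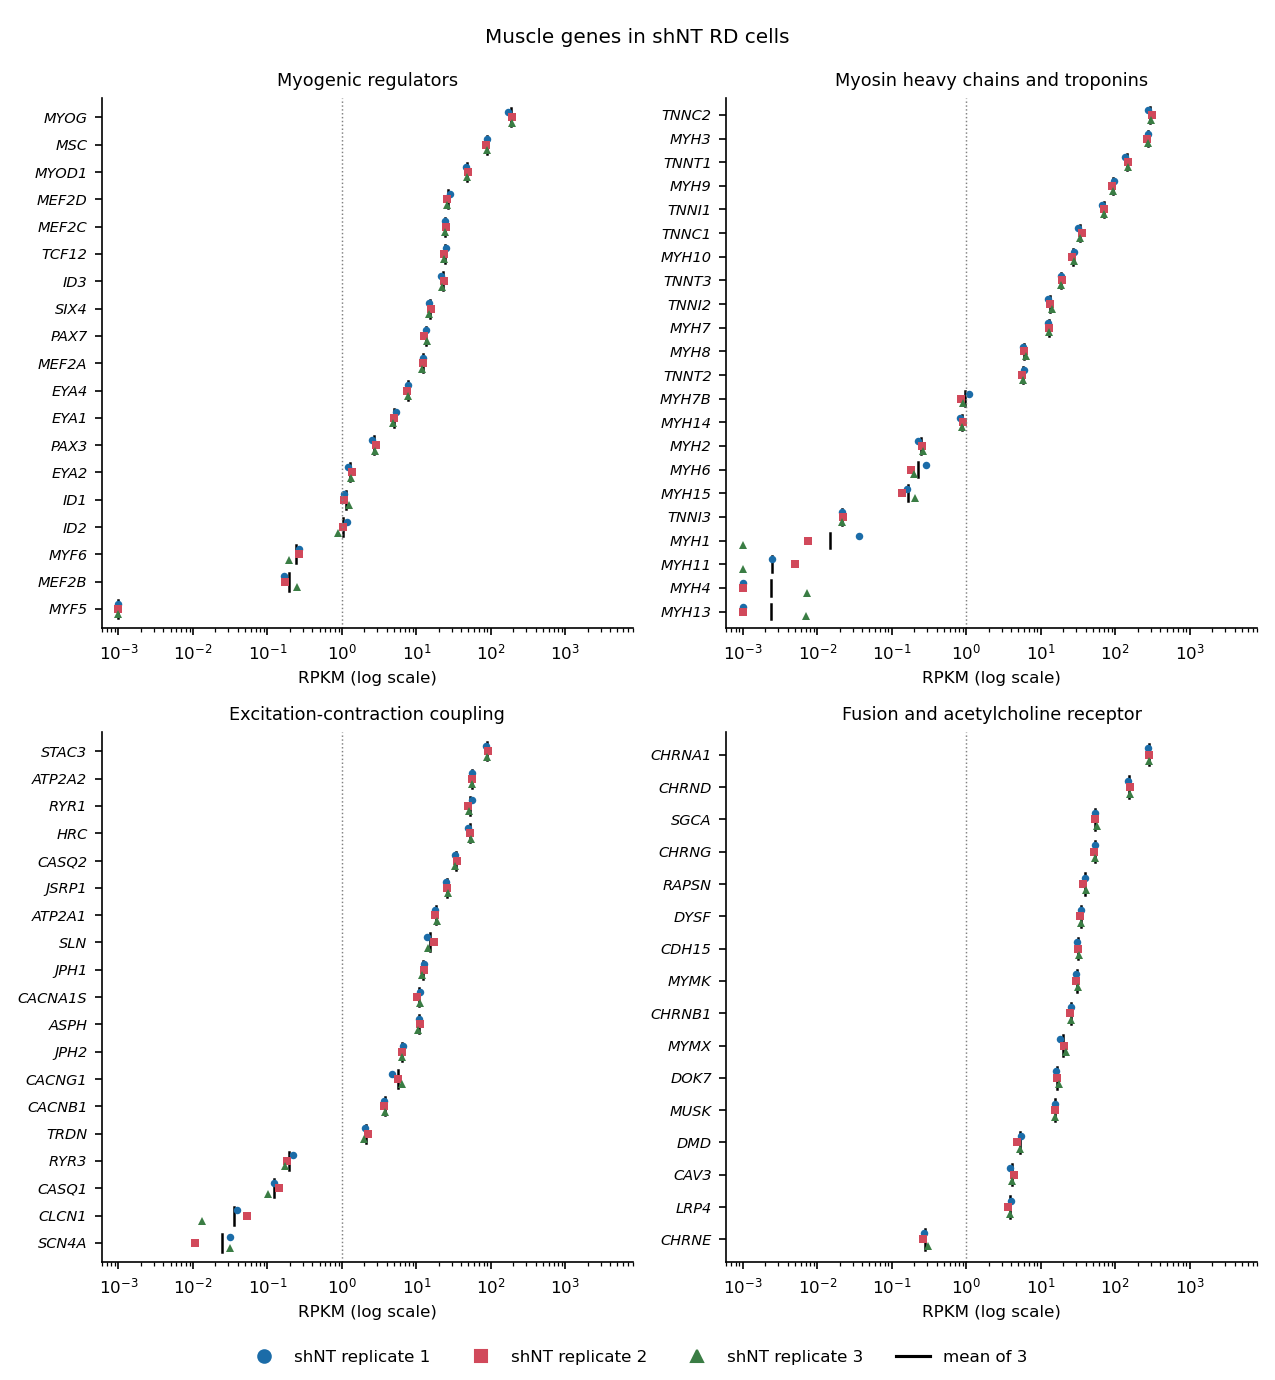
RPKM (x axis, log scale) of 19 myogenic regulators, myosin heavy chains and troponins, excitation-contraction coupling genes, and fusion and acetylcholine receptor genes (y axis) in the 3 shNT libraries (points) with their mean (bar). Values of 0 are drawn at 0.001 RPKM and the dotted line marks 1 RPKM. MYOG at 184 RPKM and MYF5 with no read mark the ends of the first panel, and CHRNG and CHRNE, at 53.0 and 0.283, stand far apart in the last.

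The embryonic gene dominated the myosin heavy chains. Among 10 sarcomeric myosin heavy chains, MYH3 made up 93.0% ± 0.114 of the summed RPKM. The slow and cardiac chain MYH7 contributed 4.35% ± 0.117 and the perinatal chain MYH8 2.06% ± 0.0698 (SD, n = 3). In RPKM, MYH7 had 12.4, 12.9 and 12.9 and MYH8 had 5.80, 6.03 and 6.25. The adult fast chains were nearly absent: MYH2 had 0.246 ± 0.0171 RPKM, MYH1 had 6 reads over the 3 libraries at 0.0146 RPKM, and MYH4 had 1 read. The minor chains MYH7B, MYH6 and MYH15 had 0.949, 0.223 and 0.167 RPKM, and MYH13, of the eye muscles, had 1 read. Nonmuscle myosins were present as MYH9 (93.4 ± 2.84 RPKM), MYH10 (27.3 ± 1.145) and MYH14 (0.870 ± 0.0451), while the smooth muscle chain MYH11 was at 0.00250 RPKM.

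Sarcomeric actin showed the same split between paralogs. ACTC1, the cardiac form that fetal skeletal muscle uses, had 607, 629 and 637 RPKM. ACTA1, the form of adult skeletal muscle, had 9.79, 10.7 and 10.7 RPKM, and no library of one came near the other. ACTC1 made up 98.4% ± 0.0428 of the pair. Light chains followed: MYL11 had 448, 499 and 521 RPKM, MYL1 had 437, 469.8 and 458, and the embryonic MYL4 had 141, 151 and 149, each lowest in replicate 1. The ventricular light chains MYL3 and MYL2 had 0.162 ± 0.0606 RPKM and no read, which for MYL2 allows up to 0.0323 RPKM.

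Troponin, the calcium switch of the thin filament, mixed fast and slow subunits. The calcium-binding subunit was mainly the fast TNNC2, with 271, 309 and 301 RPKM, beside 31.3, 35.7 and 33.9 RPKM for the slow TNNC1. TNNC2 made up 89.7% ± 0.132 of the pair. The inhibitory and tropomyosin-binding subunits leaned the other way, to the slow genes. TNNI1 had 66.2, 71.0 and 71.7 RPKM against 13.3 ± 0.786 for the fast TNNI2, and TNNT1 had 136, 149 and 147 against 18.9 ± 0.355 for the fast TNNT3 and 5.80 ± 0.237 for the cardiac TNNT2. TNNI1 was 83.9% ± 0.324 of its trio and TNNT1 85.4% ± 0.565 (SD, n = 3). The cardiac TNNI3 had 1 read in each library. No neighbours among the 8 troponins overlapped over the libraries. TNNC2, TNNT1 and TNNI1 were the 3 of 7 tested troponins whose counts differed beyond counting noise, all lowest in replicate 1, beside 6.64% of all genes tested. The share over genes depends on counts: it was 10.1% when only genes with a mean of 100 or more counts were tested.

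Of 27 sarcomere scaffold genes, 23 reached 1 RPKM, beside 55.8% of all protein-coding genes. DES led with 557, 574 and 590.5 RPKM, followed by MYBPH, a myosin-binding protein, at 142 ± 6.97 and the Z-disc crosslinker ACTN2 at 52.3 ± 0.578. The giant proteins that set filament length were present: TTN, titin, took 45065 to 56003 counts per library and had 20.6, 16.8 and 18.9 RPKM, and NEB, nebulin, had 30.5, 25.2 and 29.01. Both were highest in replicate 1 and lowest in replicate 2, and both are among the longest genes. TCAP, the titin cap, had 2.05 ± 0.162 RPKM, and the Z-disc genes MYOT and MYOZ3 were near 0 at 0.0727 and 0.00969 RPKM.

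The RefSeq windows before the transcription start (GRCh38.p14) are shown for genes on both sides of these splits: MYOG, ACTC1, CHRNA1 and TNNT1, which passed 100 RPKM, and ACTA1 at 10.4 RPKM and MYF5 with no read. Each line gives the 150 bases before the start, 5′ to 3′ on the strand of the gene, with E-boxes (CANNTG, the sites that bHLH factors read) and TATAAA on either strand in capitals.
MYOG: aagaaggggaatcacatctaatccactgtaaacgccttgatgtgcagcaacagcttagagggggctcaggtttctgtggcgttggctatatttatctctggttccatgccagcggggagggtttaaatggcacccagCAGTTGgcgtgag
ACTC1: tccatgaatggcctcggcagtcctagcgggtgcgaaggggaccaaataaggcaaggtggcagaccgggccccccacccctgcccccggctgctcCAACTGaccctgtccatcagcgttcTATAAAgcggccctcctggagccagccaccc
CHRNA1: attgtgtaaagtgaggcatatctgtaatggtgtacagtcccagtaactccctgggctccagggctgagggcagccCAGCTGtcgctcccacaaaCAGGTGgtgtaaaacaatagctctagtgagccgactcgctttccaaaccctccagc
TNNT1: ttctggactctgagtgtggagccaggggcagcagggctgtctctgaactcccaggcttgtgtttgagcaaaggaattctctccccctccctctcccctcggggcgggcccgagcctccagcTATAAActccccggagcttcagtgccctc
ACTA1: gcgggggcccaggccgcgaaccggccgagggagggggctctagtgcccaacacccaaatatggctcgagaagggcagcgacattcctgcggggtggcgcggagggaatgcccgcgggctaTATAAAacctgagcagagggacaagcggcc
MYF5: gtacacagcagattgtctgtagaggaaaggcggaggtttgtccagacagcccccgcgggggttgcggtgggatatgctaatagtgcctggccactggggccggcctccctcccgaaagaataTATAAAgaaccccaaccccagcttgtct
The windows lie at chr1:203086013-203086162 for MYOG, chr15:34795550-34795699 for ACTC1 (the first of 3 listed starts), chr2:174764473-174764622 for CHRNA1, chr19:55149207-55149356 for TNNT1, chr1:229434095-229434244 for ACTA1, all on the minus strand, and chr12:80716762-80716911 for MYF5 on the plus strand. CHRNA1 held 2 E-boxes, MYOG and ACTC1 held 1 each, and the windows of TNNT1, ACTA1 and MYF5 held none. TATAAA stood in the windows of ACTC1, TNNT1, ACTA1 and MYF5, so these letters were in windows of genes from 624 RPKM to no read. For ACTC1 this holds for the start shown: the second listed start had neither motif, and the third had 1 E-box and no TATAAA.

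Across 11306 protein-coding genes with 1 listed start, base composition moved with level up to 1 RPKM and little above it. The 250 bases before the start had a median GC content of 50% and a median of 3 CG pairs in 2069 genes with no read, and of 66.0% and 23 in 2597 genes above 10 and up to 100 RPKM. Median GC content was 64.0% above 0.1 and up to 1 RPKM, 65.6% above 1 and up to 10 RPKM, and 64.6% above 100 RPKM. TATAAA on either strand in the last 50 bases was found in 13.4% of the genes with no read, in 1.85% of those above 1 and up to 10 RPKM and in 7.14% (8 of 112) above 100 RPKM, against 5.40% of all 11306. The E-box CAGCTG, which reads the same on both strands, occurred in the 250 bases of 13.4% of all genes. Among the contractile, coupling and fusion genes it was found in 34.6% of those at 10 RPKM or more (9 of 26) and in 41.2% of those under 1 RPKM (7 of 17), so its share was above the background at both ends of expression. These shares describe letters and carry no test.

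Excitation-contraction coupling links the membrane potential to calcium release in muscle. Of its 19 listed genes, 15 reached 1 RPKM, beside 55.8% of all protein-coding genes. STAC3, an adaptor of the calcium channel, led with 85.4, 91.8 and 89.0 RPKM. RYR1, the calcium release channel, had 56.2, 49.0 and 51.3, with replicate 1 the highest. CACNA1S, the voltage sensor, had 10.8 ± 0.461 RPKM. Paralogs divided sharply here too. The calcium store protein CASQ2, of cardiac and slow muscle, had 33.3, 35.4 and 33.4 RPKM, whereas CASQ1, of fast muscle, had 0.122, 0.144 and 0.101 RPKM from 5 to 7 reads per library. CASQ2 made up 99.6% ± 0.0528 of the pair. For the calcium pumps, ATP2A2 at 56.1 ± 0.387 RPKM was 75.5% ± 0.653 of the pair with the fast muscle pump ATP2A1 at 18.3 ± 0.528. Channels of the adult muscle membrane were near 0, with the chloride channel CLCN1 at 0.0354 ± 0.0205 RPKM and the sodium channel SCN4A at 0.0248 ± 0.0121.

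The acetylcholine receptor of muscle exists in a fetal form with a gamma subunit (CHRNG) and an adult form in which an epsilon subunit (CHRNE) takes its place. The fetal set was present: CHRNA1 had 279, 286 and 287 RPKM, CHRND 150.3, 155 and 157, CHRNG 53.5, 52.5 and 52.8, and CHRNB1 25.1, 24.9 and 25.3. CHRNE had 0.274, 0.265 and 0.309 RPKM, from 21 to 25 reads per library. CHRNG exceeded CHRNE by a factor of 171 to 198 in the 3 libraries. In GENCODE 29, 54.4% of the exonic bases of CHRNE also belong to another gene, and the part of this overlap in its level was not tested. RAPSN, which clusters the receptor, had 38.8 ± 1.53 RPKM. The fusion proteins MYMK (myomaker) and MYMX (myomerger) had 30.7 ± 1.05 and 20.02 ± 1.65 RPKM, and CDH15, the cadherin of myoblasts, had 31.4 ± 1.03. Of the 16 genes in this list, 15 reached 1 RPKM, beside 55.8% of all protein-coding genes, and CHRNE was the exception.

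Metabolic genes of muscle stood beside their general paralogs. CKM, the muscle creatine kinase, had 62.0, 64.0 and 68.0 RPKM and CKB, the brain form, 73.8, 79.0 and 86.9, so CKM was 44.8% ± 0.873 of the pair. The muscle enolase ENO3 had 49.6 ± 2.22 RPKM, which was 26.9% ± 0.688 of the sum with ENO1. Muscle glycogen phosphorylase PYGM, at 8.88 ± 0.0556 RPKM, was 14.6% ± 0.198 of the 3 phosphorylases. FABP3, a fatty acid-binding protein of muscle, had 37.7, 45.1 and 39.7 RPKM. Lower levels were found for other genes of the list: MB, myoglobin, had 1.34 ± 0.09997 RPKM, SLC2A4, the insulin-dependent glucose carrier, 0.462 ± 0.0488, and CKMT2, the mitochondrial creatine kinase of muscle, 0.157 ± 0.0746.

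The extracellular matrix was the other large output. Of 23 collagen genes, 20 reached 1 RPKM, beside 55.8% of all protein-coding genes. Of the 23, 8 reached 100 RPKM, beside 219 of all 60676 genes. COL3A1 alone made up 63.1% ± 0.449 of the summed RPKM of the 23 genes. COL5A2, whose chain joins type V fibrils, was next with 415, 406 and 414 RPKM, below COL3A1 by a factor of 7.11 to 7.25. The 3 chains of type VI collagen, which surrounds muscle cells, had 200.2 ± 3.27 (COL6A2), 166 ± 3.44 (COL6A1) and 119.9 ± 5.00 (COL6A3). Basement membrane chains COL4A1 and COL4A2 had 95.1 ± 1.25 and 86.7 ± 2.60 RPKM, and COL2A1, the collagen of cartilage, had 23.9 ± 0.558.

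Type I collagen is normally built from the products of COL1A1 and COL1A2 together, and the levels of these genes were far apart. COL1A1 had 121, 116 and 123 RPKM and COL1A2 had 0.239, 0.251 and 0.250 RPKM from 59, 61 and 62 reads. The ratio was 461 to 505 in the 3 libraries, and neither gene shares exonic bases with another gene in GENCODE 29. Of the 28 other matrix genes, 26 reached 1 RPKM, beside 55.8% of all protein-coding genes. The laminin chains LAMB1 and LAMC1 had 266 ± 5.82 and 247 ± 9.08 RPKM and the glycoprotein TNC had 217 ± 10.9, whereas ELN, elastin, had 0.0269 ± 0.0137. FN1 had 419, 365 and 399.6 RPKM, a spread beyond counting noise, with replicate 1 highest and replicate 2 lowest.

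**Figure D4:**
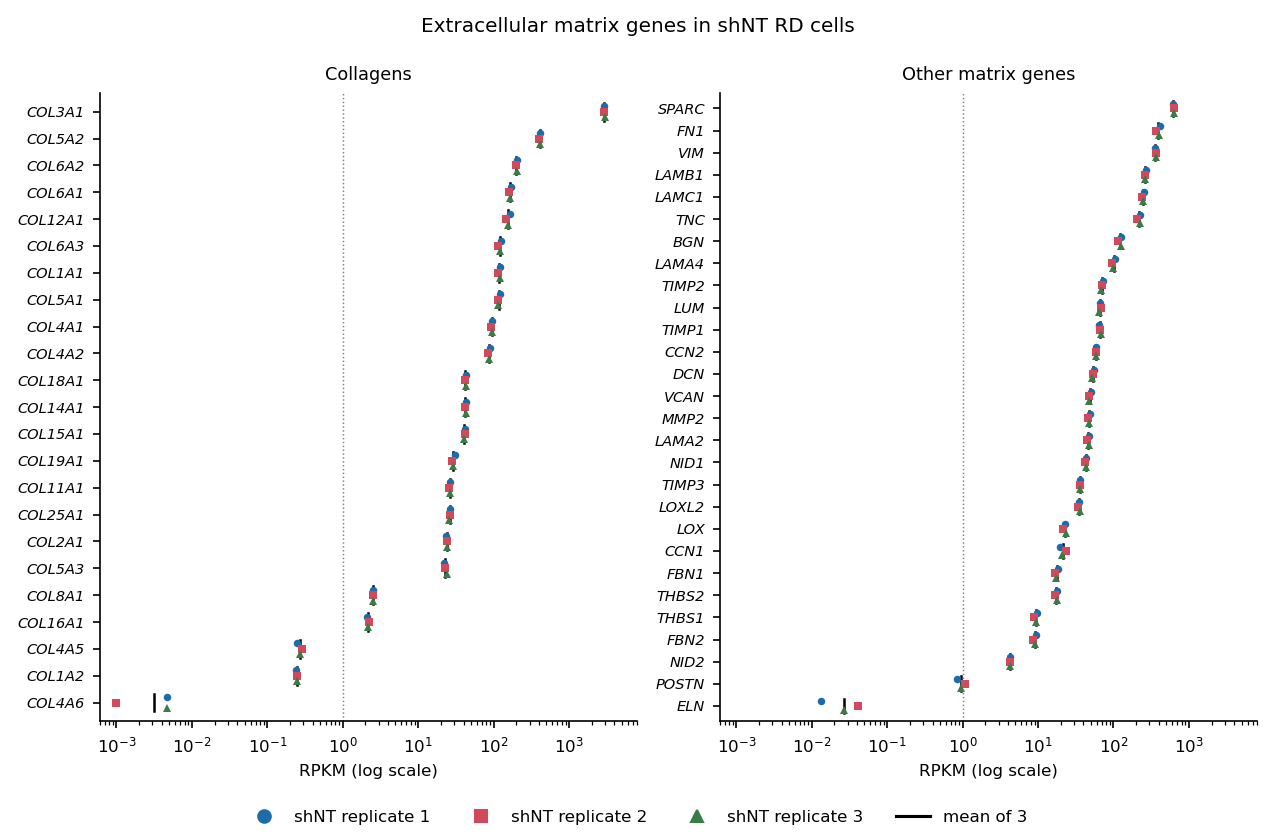
RPKM (x axis, log scale) of 23 collagens and 28 other matrix genes (y axis) in the 3 shNT libraries (points) with their mean (bar). Values of 0 are drawn at 0.001 RPKM. COL3A1 stands alone above 1000 RPKM, and COL1A2 lies near 0.25 RPKM while COL1A1 is at 119.8.

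Insulin-like growth factor 2 is an imprinted growth factor that rhabdomyosarcomas are known to express. IGF2 had 168, 142 and 163 RPKM, which varied beyond counting noise with replicate 2 lowest, and 75.01% of its exonic bases are shared with another annotated gene. IGF1 had 0.0757 ± 0.0140 RPKM, with 82.4% of its exonic bases shared. The receptor IGF1R had 9.78 ± 0.264 RPKM and the clearance receptor IGF2R 38.9 ± 1.64. H19, the non-coding RNA next to IGF2 that is expressed from the other parental copy, had 0, 0 and 2 reads. Its mean was 0.0100 RPKM and its value in replicate 3 was 0.0301, so its level is uncertain. Other imprinted genes ranged from high to near 0, with PEG10 at 372 ± 6.01 RPKM, MEST at 273 ± 2.71, MEG3 at 58.1 ± 2.69, DLK1 at 3.35 ± 0.328 and PEG3 at 0.123.

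Genes of dividing cells were present after 10 days in differentiation medium. All 22 genes of the proliferation list reached 1 RPKM, beside 55.8% of all protein-coding genes. Of them, 19 reached 10 RPKM, beside 4714 of all 60676 genes, and the list had a median of 15.7 RPKM. PCNA, the DNA polymerase clamp, had 52.3, 62.6 and 60.7 RPKM with replicate 1 lowest. TOP2A and MKI67, which mark cycling cells, had 32.5 ± 0.760 and 14.8 ± 0.822 RPKM, and CCNB2 was the lowest member at 4.77 ± 0.116. In these bulk libraries, few cells with much RNA of a gene and many cells with little cannot be told apart, so the share of cells that divided is not given by these values. Among the D cyclins, CCND2 had 109.9 ± 2.43 RPKM and made up 50.7% ± 0.549 of the 3 genes. Their partners CDK6 and CDK4 had 70.1 ± 1.99 and 56.8 ± 2.72 RPKM. Both orders depended on the gene length used. With the length of the longest GENCODE 29 transcript, CCND3 at 139 RPKM exceeded CCND2 at 122, and CDK4 at 84.7 exceeded CDK6 at 74.0. Brakes of the cycle were present as well: CDKN1A, the inhibitor p21, had 28.8 ± 0.773 RPKM, CDKN2A 16.1 ± 0.397 and RB1 7.04 ± 0.271.

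FGFR4, a receptor tyrosine kinase of myoblasts, led its list with 43.6, 45.4 and 46.7 RPKM and made up 64.0% ± 0.977 of the 4 FGF receptors. FGFR1 followed at 25.2 ± 0.252 RPKM. ALK had 2.12 ± 0.261, PDGFRA 0.450 ± 0.0598 and KIT 0.00524 from 2 reads. NRAS, a RAS gene that embryonal rhabdomyosarcomas can carry in mutant form, had 36.5 ± 1.75 RPKM. MYC had 8.65 ± 0.367 RPKM and MYCN 4.43 ± 0.417, and their libraries did not overlap.

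TRPS1 (chr8:115408496-115809673, minus strand), the GATA-type repressor whose depletion the series studies, had 6.90, 6.36 and 6.67 RPKM in these control cells (6.64 ± 0.272, SD, n = 3), from 1583 to 1744 counts. It ranked 6443rd, below MYOD1 by rank and above the median protein-coding gene. Of the NuRD complex, a chromatin repressor complex, CHD3 had 62.4 ± 1.55 RPKM, HDAC1 53.7 ± 1.55 and RBBP4 39.6 ± 0.561. These were above TRPS1, as were HDAC2, RBBP7, MTA1, MTA2, MBD3, GATAD2A and GATAD2B, at 12.5 to 22.5 RPKM. CHD4, chosen after its value was seen, had 3.53 ± 0.0938 RPKM, below TRPS1. It shares 53.5% of its exonic bases with another annotated gene, and the part of this overlap in its level was not tested. With the length of the longest transcript, CHD4 had 6.72 RPKM and TRPS1 7.36. The activating GATA factors were low, with GATA2 at 0.780 ± 0.0309 and GATA4 at 0.0133.

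Markers of epithelium, endothelium, blood, fat and heart were mostly under 1 RPKM, a level that 55.8% of all protein-coding genes reached. It was reached by 5 of 7 fibroblast, 4 of 7 smooth muscle, 4 of 7 cartilage and bone, and 4 of 10 neuronal markers. Apart from the fibroblast list, these shares were near or under that of all protein-coding genes. None of 6 endothelial and none of 6 blood markers reached 1 RPKM, with summed RPKM of 1.01 to 1.21 and 0.206 to 0.245 over the libraries. Only 1 of 6 epithelial markers (KRT18, a keratin, 1.98 ± 0.0555 RPKM) and 1 of 6 adipocyte markers (CEBPA, 1.90 ± 0.348) did, and 1 of 8 cardiac markers (NKX2-5, a homeobox factor, 4.24 ± 0.0886). The keratin KRT19, the T cell gene CD3E, HBB of red cells, the neuronal ELAVL4, NPPB of heart and MYOCD of smooth muscle had no read. Of 7 smooth muscle markers, 4 reached 1 RPKM, led by TAGLN at 8.68 ± 0.267, while CNN1 and MYH11 had 0.144 and 0.00250. Of 10 neuronal markers, 4 did: NCAM1 (38.7 ± 1.1 RPKM), a cell adhesion protein that muscle cells also carry, SYT1 (7.76 ± 0.148), NEFM (6.38 ± 0.397) and SNAP25 (3.40). NEFL and TUBB3 had 0.933 and 0.923 RPKM, and STMN2, CHGA and RBFOX3 had 0.0679, 0.0144 and 0.00297. Of 7 cartilage and bone markers, 4 reached 1 RPKM: COL2A1 (23.9 ± 0.558), ALPL, a phosphatase of bone (13.2 ± 1.21), SOX9, the cartilage factor (6.76 ± 0.284), and RUNX2, of bone (1.23). ACAN, COMP and SP7 of the same list had 0.301, 0.0521 and 0.0173 RPKM. Of 7 fibroblast markers, 5 reached 1 RPKM, with COL1A1 at 119.8, the proteoglycans LUM and DCN at 66.9 and 53.7 and THY1 at 38.3, while PDGFRA had 0.450 and COL1A2 0.247. The summed RPKM of the fibroblast list was 279.9 to 284 in the libraries. Its part in the collagen and matrix levels was not tested.

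**Figure D5:**
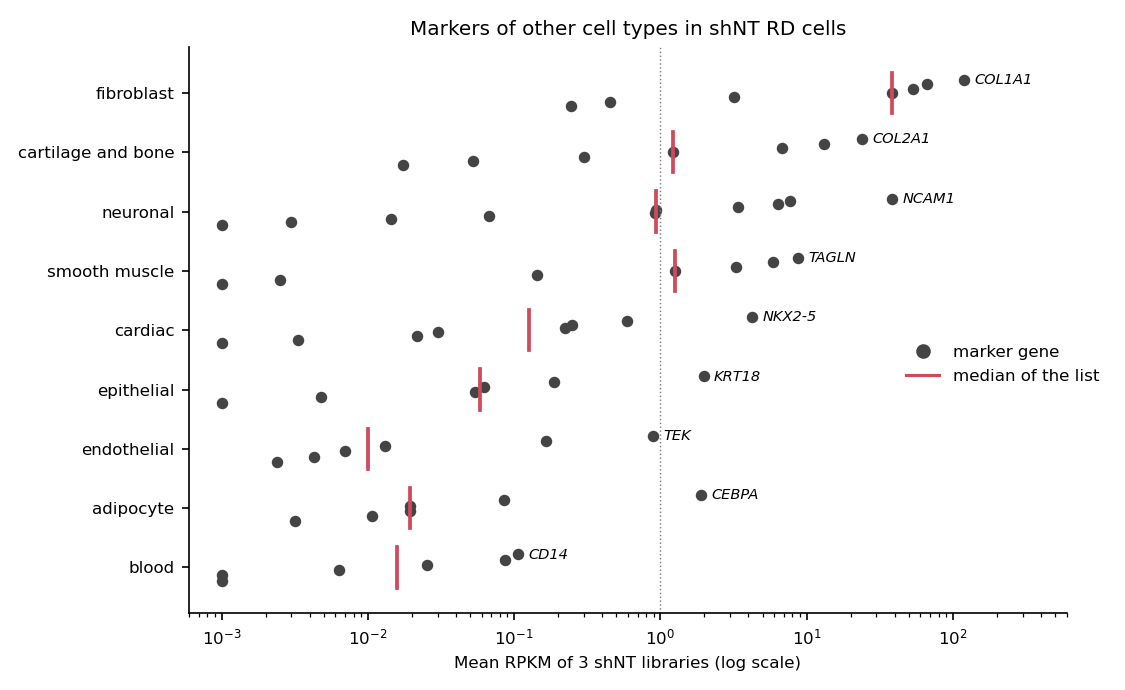
Mean RPKM over the 3 shNT libraries (x axis, log scale) of the markers of 9 other cell types (points, 1 per gene) with the median of each list (red bar). Values of 0 are drawn at 0.001 RPKM and the dotted line marks 1 RPKM. The fibroblast list has the highest median, at 38.3 RPKM, and the endothelial list the lowest, at 0.0101 RPKM.

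Among non-coding genes the highest were MT-RNR2, the large mitochondrial ribosomal RNA (2623 ± 67.1 RPKM), RN7SL1, an RNA of the signal recognition particle (559 ± 37.1), the pseudogene MTATP6P1 (233 ± 10.2), the transfer RNA gene MT-TL1 (232 ± 18.1) and MT-RNR1 (207 ± 6.49). RN7SL2, a near-identical copy of RN7SL1, had no read, and MTATP6P1 copies a mitochondrial gene, so the split of reads within such pairs is uncertain. The muscle microRNA loci were counted as hairpins in these poly(A) libraries, which do not measure mature microRNAs. MIR133B had 86, 72 and 85 reads and MIR206, nearby on chromosome 6, had 9, 4 and 11. The copies of their relatives miR-1 (MIR1-1 and MIR1-2) and miR-133a (MIR133A1 and MIR133A2) had no read, which at these short lengths allows up to 0.431 to 0.619 RPKM. All bases of MIR1-2 and MIR133A1, and 24.5% of those of MIR133A2, also belong to another gene in GENCODE 29, and the host gene MIR133A1HG had 62, 76 and 85 reads, so these zeros do not show that the loci were silent. The mature sequences (RefSeq, GRCh38.p14) show which of these loci share a seed, the bases in capitals by which a microRNA finds its targets.
hsa-miR-206: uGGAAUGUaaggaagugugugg
hsa-miR-1-3p: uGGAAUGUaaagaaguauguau
hsa-miR-133b: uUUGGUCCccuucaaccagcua
hsa-miR-133a-3p: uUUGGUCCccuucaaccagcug
Reads were thus assigned to 1 locus of each seed family, miR-206 (chr6:52144401-52144422, plus strand) and miR-133b (chr6:52148988-52149009, plus strand), and to none of the 4 other loci. Of these 6 loci, all but MIR206 were chosen after their values were seen.

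The genes at 10 RPKM or more with the largest spread over the libraries in excess of counting were MT-TP, MIR30A, MT-TD, TMSB10P1, C4orf48, MIF, MIR635, TMA7, TMEM256 and SNHG19, most of them short. This order uses point estimates only. In the chi-square test, counts of MT-TP, MIR30A, MT-TD and MIR635 did not differ beyond counting noise (adjusted p 0.120 to 0.491). MIF, a cytokine gene, had 19.9, 27.5 and 27.2 RPKM, and TMSB10P1, a processed copy of TMSB10, had 18.9, 28.0 and 28.1, both lowest in replicate 1. The transfer RNA genes MT-TP and MT-TD had 10.3, 22.9 and 23.1 RPKM and 21.3, 32.1 and 17.3, from 16 to 49 reads per library.

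Some levels are limited by how reads were assigned. ALDOA, a glycolytic enzyme gene that is abundant in most cells, had 0.904, 1.07 and 0.979 RPKM, and 53.5% of its exonic bases belong also to another gene in GENCODE 29. CHD4, given above at 3.53 RPKM, also had 53.5% shared. HSPA1A and HSPA1B encode the same heat shock protein and had 0.0122 ± 0.0210 and 6.97 ± 0.400 RPKM. ALDOA, CHD4 and HSPA1B were chosen after their values were seen. Among protein-coding genes at 1 RPKM or more, 169 shared over 50% of their exonic bases. How the authors treated reads that overlap several genes or align to several places is not given in the sources used here, and the part of this treatment in the levels was not tested.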

How the data were processed

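Poly(A) RNA sequencing of 3 shNT libraries was analysed, grouped by their labels. The authors deposited whole-number read counts per gene, and the deposited RPKM values equalled those counts divided by a gene length and the library total (largest relative deviation 3.6e-14). Named in the submitters' processing notes are GRCh38, STAR 2.7.2b, bcl2fastq 2.20.0.422 and featureCounts 1.6.5. The annotation release, strand setting and handling of ambiguous reads were not given in the sources used here. Symbols were taken from a table of gene names, and types, positions and shared exonic bases from GENCODE 29, which held 58503 of the 60676 identifiers. IDs absent from it held 0.0503% of counts. Means and SDs were taken over the 3 libraries. A chi-square test of homogeneity (scipy 1.17.1), tested on simulated data, was run on genes with a mean of 10 or more counts, with Benjamini-Hochberg adjustment at 0.05. TMM factors came from edgeR 4.0.16.

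The members and the 29 gene lists (417 symbols, of which 416 matched) were chosen with earlier results of these data known. Named genes were the 20 highest nuclear protein-coding genes, the 5 highest mitochondrial and non-coding genes, COL3A1, MYOD1, MYOG, MYH3, TRPS1 and the 5 genes nearest in rank to the first 4 of these, all regulators, myosin heavy chains and troponins, up to 8 high and 4 low members of other lists, and the 10 most variable genes. Some list members outside this rule are named for contrast with a paralog. Not every gene that met the rule is reported here. Alternatives were leaving out each library, medians, TMM, TPM, other thresholds and filters, and, chosen after seeing the data, transcript length.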

Additional observations from a re-analysis of the deposited data

How the results depend on the processing

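No paired analysis was possible because the values come from 1 group. The number of genes at 1 RPKM or more was 10812 to 17827 under 12 alternatives, of which the highest was the conversion to TPM, and stayed within 1.5 times the reported 12782. The RPKM of a library summed to 219482 to 223838, so TPM raises all values of a library by a common factor. A threshold of 1 TPM is therefore lower than 1 RPKM, and moves with TPM reflect the change of unit. Nuclear protein-coding genes alone gave shares of 5.27% for the 10 highest genes and 16.8% for the 100 highest, by construction without the mitochondrial genes. The length of the longest GENCODE 29 transcript in place of the authors' gene length, chosen after seeing the data, gave 8.46% and 22.4%. It put COL3A1 first and moved MYOG to rank 156 and MYOD1 to rank 1129. The median ratio of the lengths was 1.27. The shares and orders of paralogs given above use the authors' lengths, and their SDs do not cover this choice. With the transcript length, PAX7 had 15.6 RPKM and PAX3 6.84, and the order of CCND2 and CCND3 and of CDK6 and CDK4 reversed. The number of genes that differed beyond counting noise was 182 to 924 when a library was left out, lowest without replicate 1, where fewer libraries also enter the test, and 622 with sizes adjusted for gene length. Of 29 list counts, 26 or more stayed within 1.5 times under each alternative. The exceptions were lists with few members over the threshold: heavy chains (9 with TPM), endothelial (1 with TPM or at 0.5 RPKM), cardiac (4 with TPM, 2 at 0.5 RPKM), and epithelial and adipocyte (0 at 2 RPKM). Of 473 named or listed genes, the mean moved by more than 1 SD in 456 with TPM, where the change of unit fixed the outcome. It moved in 323 with the transcript length, in 129 with totals that leave out the mitochondrial genome, and in none with TMM factors. Leaving out 1 of 3 libraries cannot move a mean that far, so it is no check of single genes. Depth limits genes under about 0.1 RPKM, where a gene of 2 kb has few reads.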

Other observations

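Genes known from fetal tissue and from tumours had levels from 3.37 to 51.1 RPKM in these shNT libraries. They were chosen after their values were seen. HMGA2, a chromatin protein of embryonic tissues, had 51.8, 51.1 and 50.4 RPKM in replicates 1, 2 and 3. The IGF2 mRNA-binding proteins IGF2BP1, IGF2BP2 and IGF2BP3 had 36.0 ± 0.474, 24.8 ± 0.636 and 12.8 ± 0.120 RPKM (SD, n = 3), and LIN28B, which blocks maturation of let-7 microRNAs, had 3.37 ± 0.150. The 3 libraries of each gene lay close together, and the ranges of the IGF2BP genes did not overlap.

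The genes described next were also chosen after their values were seen. The membrane protein genes NGFR and FNDC5 were among those ranked above MYH3, which stood 48th, as was the receptor gene CHRNA1 at rank 45. NGFR, the low-affinity neurotrophin receptor, ranked 41st with 290.3, 301 and 307 RPKM, and 27.1% of its exonic bases are shared with another gene in GENCODE 29. FNDC5, whose product is cleaved to the secreted factor irisin, ranked 43rd with 295, 295 and 296 RPKM. The imprinted gene NDN had 77.6 ± 3.79 RPKM, and RTL1, an imprinted gene near MEG3, had 0.101 ± 0.0215. MIR483, which lies within IGF2, had 23, 14 and 16 reads, which did not differ beyond counting noise. CDH2, the N-cadherin gene, had 57.0 ± 0.872 RPKM.

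Stress and interferon genes covered a wide range. HSPA5, the chaperone of the endoplasmic reticulum, had 229, 239 and 238 RPKM. ISG15, an interferon-induced gene, had 26.7, 28.4 and 32.9, whereas the interferon-induced MX1 stood at 0.175 RPKM. B2M, a subunit of antigen-presenting complexes, had 50.7 ± 1.61 RPKM.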
